A study of Mus musculus with 12 samples.

Results

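The genes described here were the chemokines and their receptors, taken by symbol as every *Ccl*, *Cxcl*, *Cx3cl*, *Ccr*, *Cxcr*, *Cx3cr* or *Ackr* name that carries a number, and kept when at least 1 of the 12 RNA-Seq libraries showed an FPKM of at least 1. FPKM are fragment numbers scaled to transcript length and to how many reads of a library mapped, so levels are per length. This left 35 genes, 26 ligands and 9 receptors, of 59 genes with such a symbol and of 25897 gene names over all files. *Ackr3* was listed under its older symbol *Cxcr7* in sorted osteoblasts, and both names were counted as 1 gene. *Ackr4* was listed there under *Ccrl1*, a name outside the symbol rule, and its values from sorted osteoblasts are given apart from the members. *Ackr1* and *Ackr2* were listed there as *Darc* and *Ccbp2*, also outside the rule, and are not among the 9 receptors. Their mean FPKM were 0.81 and 0.64 with vehicle and 0.36 and 1.23 with PTH.

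The samples formed 4 groups of 3 libraries. Osteoblasts came from female Col2.3-ECFP mice, in which a fragment of the type I collagen promoter drives a cyan reporter in mature osteoblasts. At 12 weeks of age these mice began to receive vehicle (PBS) or PTH (1-34), the active N-terminal fragment of parathyroid hormone. The daily dose of PTH was 40 µg/kg, injected 5 days per week over 3 weeks. Cells were freed from bone by collagenase and sorted as 7AAD-Lin-CD45-ECFP+ 24 h after the last injection, so viable cells without lineage markers or CD45 were sought in both groups. MC3T3-E1, an osteoblast-like line from mouse calvaria, carried either the empty retroviral vector (mock) or a vector for constitutive *Slpi* expression, both with a puromycin-resistance gene, and was lysed while subconfluent. The methods state for the study in general that mice differed between biological replicates. The labels do not tie a library to an animal, a pool or a culture, and for libraries of MC3T3-E1 cells *p*-values measure a spread that may be technical.

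Chemokines are small secreted proteins that attract leukocytes through G protein-coupled receptors, and many are held on cell surfaces and matrix by glycosaminoglycans. The atypical receptors ACKR3 and ACKR4 bind chemokines without G protein signaling and remove them from the surroundings. In bone marrow, CXCL12 from stromal and osteoblast-lineage cells retains hematopoietic cells that carry CXCR4, and ACKR3 takes up the same ligand.

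Osteoblast markers were present in sorted cells, with mean FPKM of 65.3 for *Sp7* and 7693 for *Bglap* in the vehicle group and 92.7 and 9758 in the PTH group. *Col1a1* and *Col1a2* were listed at 0 in vehicle replicate 3 and in all PTH libraries, a gap in the values of the collagen genes that the reporter promoter belongs to. *Ptprc*, which encodes CD45, was nevertheless measured at 56.9, 59.2 and 35.9 FPKM in the vehicle libraries and at 10.1, 8.53 and 0.930 in the PTH libraries. In MC3T3-E1 cells, *Slpi* lay between 377 and 396 FPKM in mock libraries and between 1848 and 2105 in *Slpi* libraries. PTH replicate 3 stood apart, with 10795 genes at an FPKM of at least 1 against 11463 to 11746 in the other osteoblast libraries, and with 11 of the 34 listed members at 0, against 0 to 7 elsewhere in that experiment. In MC3T3-E1 cells, each library had 12 to 17 of the 35 members at 0.

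In sorted osteoblasts treated with vehicle, the family was led by *Ackr3* at 31.5 ± 3.80 FPKM (SD, n = 3). *Cxcl1*, a ligand of the neutrophil receptor CXCR2, followed at 26.8 ± 4.22, *Cxcl12* at 24.8 ± 3.26 and *Ccr8*, a receptor of T cell subsets, at 21.2 ± 3.84. The ranges of *Ackr3*, *Cxcl1*, *Cxcl12* and *Ccr8* each overlapped that of the next gene in this order, although *Cxcl1* exceeded *Cxcl12*, and *Cxcl12* exceeded *Ccr8*, within each of the 3 libraries. *Ackr4* is left out of this order, and under the name *Ccrl1* it had mean FPKM of 23.7 with vehicle and 33.0 with PTH, close to *Cxcl12* and *Cxcl1*. *Cxcl10*, an interferon-induced ligand of CXCR3, was lower at 9.54 ± 1.80, and no library of it reached the lowest of *Ccr8*. In the PTH group, *Ackr3* led at 61.2 ± 7.05, followed by *Cxcl1* at 32.5 ± 4.04 and *Cxcl12* at 26.9 ± 3.05. *Cxcl10* at 8.91 ± 1.26 and *Ccl2*, which attracts monocytes through CCR2, at 8.89 ± 2.88 came next and overlapped each other.

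MC3T3-E1 cells had a different order. *Cxcl12* led the mock group at 72.6 ± 1.86 FPKM, followed by *Ccl2* at 45.6 ± 1.14, by *Cx3cl1*, the membrane-bound ligand of CX3CR1, at 40.4 ± 1.41, and by *Ackr3* at 38.6 ± 1.18. The ranges of *Cx3cl1* and *Ackr3* overlapped in this order, although *Cx3cl1* was the higher within each library, and *Ccl7*, a further monocyte attractant, came next at 23.4 ± 0.406. *Cxcl1* was listed between 0 and 0.053 FPKM in the 6 MC3T3-E1 libraries. *Ccr1*, *Ccr8* and *Cx3cr1* were listed at 0 in all 6, *Ccr4* did not pass 0.013 and *Cxcr4* did not pass 0.123. The line thus listed ligands with little or no transcript of their signaling receptors, while *Ackr3* and *Ackr4* were the 2 receptors that reached an FPKM of 1. The experiments differed in cells and were normalized separately, so these levels are side by side and were not tested.

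**Figure D1:**
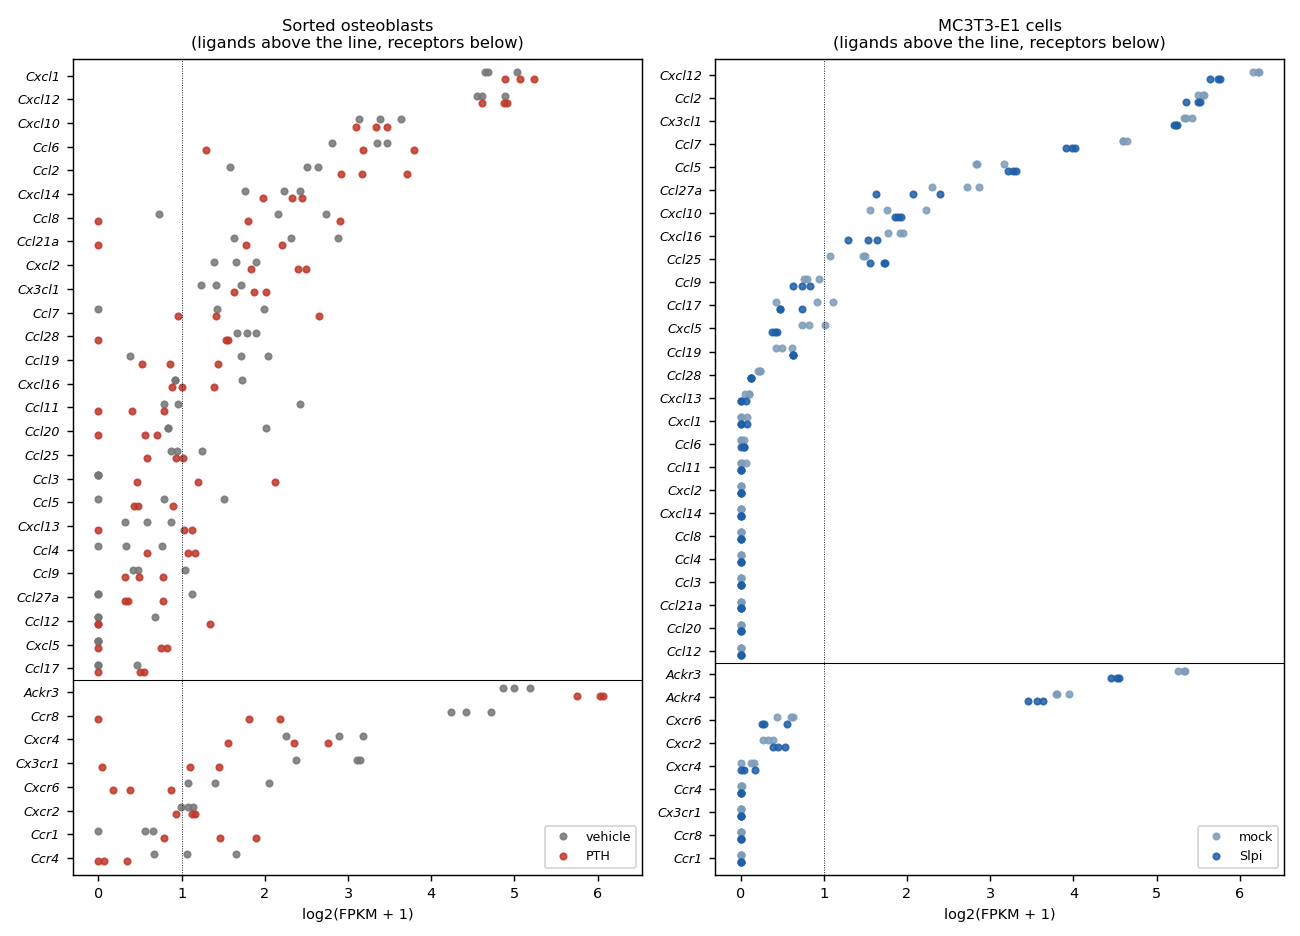
Levels of the members as log2(FPKM + 1) in each library, with sorted osteoblasts on the left and MC3T3-E1 cells on the right. Each point is 1 library, the dotted line marks an FPKM of 1, and the receptors are drawn below the 26 ligands. Of the 9 receptors, 8 are drawn for sorted osteoblasts, with *Ackr3* taken from its older symbol *Cxcr7* and *Ackr4* left out. *Ackr3*, *Cxcl1* and *Cxcl12* are high in sorted osteoblasts, whereas *Cxcl1* lies near 0 in MC3T3-E1 cells.

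The promoters of the leading genes of both experiments are shown because *Ackr3* and *Cxcl12* moved in the comparisons below and *Cxcl1* separated the cells. They were read from RefSeq on GRCm38.p6 (mm10), plus strand, up to the annotated gene start. *Ackr3* was read at chr1:90203730-90203979, *Cxcl12* at chr6:117168285-117168534 and *Cxcl1* at chr5:90890995-90891240. Capitals mark the letters TATAAA in *Ackr3* and 2 overlapping matches to the NF-kB consensus in *Cxcl1*.
Ackr3: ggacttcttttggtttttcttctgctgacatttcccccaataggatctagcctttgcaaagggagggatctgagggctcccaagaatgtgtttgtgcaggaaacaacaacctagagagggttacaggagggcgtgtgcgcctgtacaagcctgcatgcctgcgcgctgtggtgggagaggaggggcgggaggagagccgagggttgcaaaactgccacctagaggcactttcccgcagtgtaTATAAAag
Cxcl12: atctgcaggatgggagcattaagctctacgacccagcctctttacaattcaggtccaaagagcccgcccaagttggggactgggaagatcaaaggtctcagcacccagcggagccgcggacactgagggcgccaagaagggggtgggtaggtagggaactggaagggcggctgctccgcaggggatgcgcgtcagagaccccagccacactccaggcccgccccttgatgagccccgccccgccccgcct
Cxcl1: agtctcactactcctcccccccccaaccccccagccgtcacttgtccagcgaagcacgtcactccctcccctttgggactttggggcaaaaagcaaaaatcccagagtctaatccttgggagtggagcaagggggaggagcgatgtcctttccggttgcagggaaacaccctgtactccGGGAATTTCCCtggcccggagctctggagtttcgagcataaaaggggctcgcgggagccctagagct

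RefSeq promoters, from 250 bases before to 50 bases after the start, were matched for 28 of the 35 members. *Ccl2*, *Ccl4*, *Ccl5*, *Ccl7*, *Ccl11*, *Cxcl5* and *Cxcl16* had no entry. On both strands, the NF-kB consensus was found in 7 of 28 members, namely *Ccl20*, *Ccl27a*, *Ccl9*, *Ccr1*, *Cxcl1*, *Cxcl10* and *Cxcl2*, and in 8.46% of all 32851 promoters. The AP-1 site TGANTCA was found in 5 of 28 against 7.81% of all promoters, the core of the interferon-stimulated response element in 3 against 3.44%, and TATAAA in 9 against 13.6%. The cAMP response palindrome TGACGTCA was in none of the 28 windows and in 1.79% of all promoters. These matches are descriptions of letters in a short window, and no binding was measured.

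To describe the response to intermittent PTH, PTH-treated and vehicle-treated osteoblasts were compared with limma on log2(FPKM + 1), which understates changes of low genes. Of 32 members tested, 24 ligands and 8 receptors, *Ackr3* rose and *Ccr8* and *Cx3cr1* fell at a Benjamini-Hochberg adjusted *p* under 0.05. The 3 called members are 9.38% of those tested, against 15.2% of all 13004 genes. 1 member (3.12%) rose against 6.38% of all genes, and 2 (6.25%) fell against 8.85%. All 3 called members were receptors, and none of the 24 ligands was called. Without PTH replicate 3, the library that stood apart, *Ccl3*, *Ccr1* and *Cxcl2* were called higher as well (adjusted *p* = 0.0262, 0.0402 and 0.047 by limma). At an unadjusted *p* under 0.05, 3 ligands were higher and none lower, against 16.0% and 17.5% of all genes. The median log2 fold change was 0.01 for ligands and -0.78 for receptors, and 0.007 for all genes. Among the receptors, *Ccr4* and *Cxcr6* reached an FPKM of 1 only in vehicle libraries, and *Ccr1* only in PTH libraries. These genes thus entered the test through the group where they were high. The receptor median leaves out *Ackr4*, *Ackr2* and *Ackr1*, listed under older names. Their log2 fold changes were 0.47, 0.44 and -0.41, none past the adjusted threshold.

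*Ackr3*, the scavenger of CXCL12 on chromosome 1 (chr1:90203980-90216751, mm10), was measured at 30.9, 27.98 and 35.5 FPKM in the vehicle libraries and at 65.9, 53.1 and 64.5 in the PTH libraries. The lowest PTH library lay above the highest vehicle library. Its log2 fold change was 0.94 (SE 0.132, adjusted *p* = 0.0143 by limma), a rise in 3 of 3 PTH libraries that lay between 0.86 and 1.03 when any 1 library was left out. *Cxcl12* (chr6:117168535-117181367) was measured at 28.5, 22.4 and 23.4 FPKM with vehicle and at 29.0, 23.4 and 28.2 with PTH. The groups overlapped, and the log2 fold change of 0.11 (95% interval -0.20 to 0.43, adjusted *p* = 0.576 by limma) did not pass the test. The ratio of *Cxcl12* to *Ackr3* FPKM within a library was 0.921, 0.802 and 0.658 with vehicle and 0.440, 0.441 and 0.438 with PTH. All PTH ratios lay below all vehicle ratios (exact permutation test, two-sided, *p* = 0.1, the smallest that 3 against 3 libraries allow). *Cxcr4*, the signaling receptor for CXCL12, was measured at 8.08, 6.43 and 3.78 FPKM with vehicle and at 5.75, 4.12 and 1.94 with PTH, which overlapped (log2 fold change -0.56, adjusted *p* = 0.307 by limma).

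*Ccr8* (chr9:120092114-120094906) was the member with the largest fitted fall. It was measured at 25.4, 20.3 and 17.9 FPKM with vehicle and at 2.51, 3.55 and 0 with PTH, so that the groups lay far apart. The log2 fold change was -3.13 (SE 0.528, adjusted *p* = 0.0184 by limma). *Cx3cr1*, the fractalkine receptor of monocytes, NK cells and some T cells, was measured at 7.86, 7.62 and 4.18 FPKM with vehicle and at 1.15, 1.74 and 0.0317 with PTH. Again no PTH library reached the lowest vehicle library, and the log2 fold change was -2.01 (SE 0.391, adjusted *p* = 0.0239 by limma). Both falls were of at least 2-fold, as were those of 3.78% of all genes tested, while no member both passed the test and rose at least 2-fold, against 0.869% of all genes. Neither receptor was called with a pseudocount of 0.1 (adjusted *p* = 0.0614 for *Ccr8* and 0.0638 for *Cx3cr1* by limma). The annotated *Cx3cr1* gene (chr9:119901616-120069879) ends 22234 bases from *Ccr8* and spans several other genes, so reads there may have been divided among overlapping genes. Leaving out vehicle replicate 1 or 2 ended the 3 calls, *Ackr3* with adjusted *p* values of 0.0768 and 0.0752, *Ccr8* with 0.0857 and 0.0808, and *Cx3cr1* with 0.101 in each case, while all genes together then had 1 and 0 calls by limma (3181 and 3053 genes passed an unadjusted *p* of 0.05). Leaving out PTH replicate 1 also ended the call of *Cx3cr1* (adjusted *p* = 0.0569 by limma).

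*Cxcr6* and *Ccr4*, receptors of T cell subsets, lay lower in every PTH library without passing the test. *Cxcr6* was measured at 3.16, 1.65 and 1.11 FPKM with vehicle and at 0.830, 0.296 and 0.132 with PTH (log2 fold change -1.04, adjusted *p* = 0.0654 by limma). *Ccr4* was measured at 1.09, 2.16 and 0.589 FPKM with vehicle and at 0.271, 0.0484 and 0 with PTH (log2 fold change -0.99, adjusted *p* = 0.064 by limma). Judged by the FPKM step of 1 read, *Ccr4* rested on 18, 28 and 13 reads against 5, 1 and 0. *Ccr1*, a receptor of neutrophils and monocytes, was measured at 0.477, 0 and 0.579 FPKM with vehicle and at 2.72, 1.76 and 0.723 with PTH, all above the vehicle libraries (log2 fold change 0.97, adjusted *p* = 0.0923 by limma). *Cxcr2*, the neutrophil receptor for CXCL1 and CXCL2, lay between 0.993 and 1.19 FPKM with vehicle and between 0.905 and 1.23 with PTH, and its groups overlapped.

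Markers of leukocytes also differed between the groups, although CD45+ and lineage-positive cells had been gated out. Of 17 T cell markers, 14 were listed. They summed to 168, 166 and 106 FPKM with vehicle and to 21.2, 24.9 and 1.31 with PTH. Of the 9 tested, 7 fell, against 8.85% of all genes. The defining marker *Cd3e* had mean FPKM of 18.6 and 2.33, while *Cd4*, *Cd8a* and *Cd5* were near 0 in both groups. NK cell markers summed to 21.7 to 38.0 FPKM with vehicle and to 0.700 to 12.5 with PTH. Of the 3 tested, 2 fell, against 8.85% of all genes, although *Ncr1* and *Eomes* were at or near 0. Neutrophil markers summed to 388 to 484 FPKM with vehicle and to 2376, 1981 and 705 with PTH. Of 12 tested, 7 rose, against 6.38% of all genes, while the groups of the neutrophil receptor *Cxcr2* overlapped. Among the PTH libraries, *Ccr1* was highest in replicate 1 and lowest in replicate 3. The neutrophil, monocyte or macrophage, and megakaryocyte or platelet sums all had that order. The NK cell, B cell and mast cell or basophil sums had it too, so it was not particular to any of these lists. Replicate 3 was also the library that stood apart. With vehicle, *Ccr1* was 0 in replicate 2, where the neutrophil sum was highest at 484 FPKM. Mast cell or basophil markers summed to 49.6 to 77.0 FPKM with vehicle and to 5.12 to 15.7 with PTH. With vehicle, most of the sum was *Cpa3*, a mast cell protease, which fell from 63.8 ± 14.9 to 4.65 ± 3.86 (SD, n = 3, adjusted *p* = 0.0193 by limma). Of the 5 markers tested in that list, 1 fell and 1 rose, against 8.85% and 6.38% of all genes. *Fcer1a*, *Ms4a2* and *Mcpt4* were listed at 0 in all 6 libraries. Monocyte or macrophage markers summed to 54.8 to 87.3 FPKM with vehicle and to 153, 149 and 44.5 with PTH, while *Cx3cr1* was lower in every PTH library. In bulk samples, fewer cells of a type and less RNA per cell cannot be told apart, and the part of these cells in the receptor values was not tested.

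**Figure D2:**
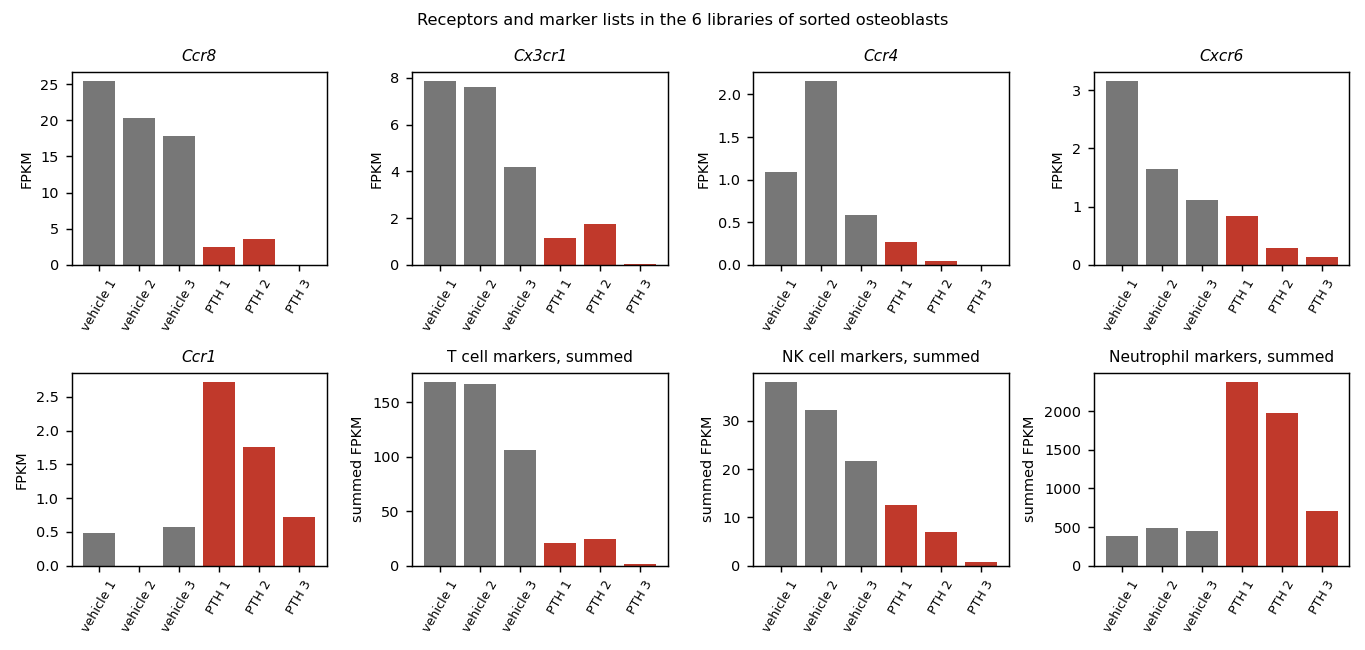
FPKM of 5 receptors and summed FPKM of T cell, NK cell and neutrophil markers in the 6 libraries of sorted osteoblasts, vehicle in gray and PTH in red, 1 bar per library. *Ccr8*, *Cx3cr1*, *Ccr4* and *Cxcr6* are lower in every PTH library, as are the T cell and NK cell sums, and *Ccr1* and the neutrophil sum are higher.

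Among the ligands, the inflammatory CC chemokines *Ccl3* and *Ccl2* had the largest fitted log2 fold changes above 0, and neither was called. *Ccl2* (chr11:82035571-82037453) was measured at 5.23, 1.99 and 4.69 FPKM with vehicle and at 6.55, 12.1 and 8.02 with PTH. The groups did not overlap (log2 fold change 1.02, adjusted *p* = 0.0747 by limma). *Ccl3*, a ligand of CCR1, was listed at 0 in all vehicle libraries and at 3.36, 1.29 and 0.383 FPKM with PTH (adjusted *p* = 0.0775 by limma), which corresponded to 7, 3 and 1 reads. Neutrophil markers were higher in the same libraries, and their part in these ligands was not tested. *Cxcl2*, a neighbor of *Cxcl1* on chromosome 5 at 10755 bases, was measured at 1.61, 2.72 and 2.14 FPKM with vehicle and at 4.64, 4.28 and 2.55 with PTH, which overlapped (log2 fold change 0.60, adjusted *p* = 0.119 by limma). *Cxcl1* itself was measured at 31.7, 24.1 and 24.6 FPKM with vehicle and at 28.5, 32.5 and 36.6 with PTH, which also overlapped (log2 fold change 0.27, adjusted *p* = 0.234 by limma).

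*Ccl11*, *Ccl20* and *Ccl28*, which attract eosinophils, CCR6+ lymphocytes and mucosal lymphocytes, lay lower in every PTH library. Their log2 fold changes were -0.99, -0.81 and -0.75, with adjusted *p* values of 0.176, 0.18 and 0.251 by limma. *Ccl28*, for example, was measured at 2.17, 2.70 and 2.45 FPKM with vehicle and at 1.90, 1.94 and 0 with PTH, so that PTH replicate 3 carried most of the difference. Without PTH replicate 3 its log2 fold change was -0.23. For *Ccl11*, the lowest vehicle library lay at 0.723 FPKM and the highest PTH library at 0.721. By the FPKM step of 1 read, *Ccl11* rested on 4, 19 and 7 reads against 2, 5 and 0. *Ccl20* rested on 3, 9 and 4 reads against 2, 3 and 0. The most abundant of the remaining ligands did not separate the groups. *Cxcl10* was measured at 11.4, 7.80 and 9.43 FPKM with vehicle and at 10.03, 7.55 and 9.13 with PTH, and *Ccl6*, a myeloid CC chemokine, at 5.99, 9.22 and 10.1 with vehicle and at 8.09, 12.9 and 1.45 with PTH. Counted over both classes, 4 members (12.5%) were higher and 7 (21.9%) lower without overlap between the groups, against 19.5% and 20.9% of all genes, and 21 overlapped. Of those without overlap, *Ccr4*, *Cxcr6*, *Ccl11* and *Ccl20* passed the filter only through vehicle libraries, and *Ccr1* and *Ccl3* only through PTH libraries. Summed over the 26 ligands, FPKM was 103 ± 3.37 with vehicle and 114 ± 14.4 with PTH, and over the 8 receptors it was 70.1 ± 7.03 and 71.5 ± 7.77 (SD, n = 3). The second sum holds both the higher *Ackr3* and the lower *Ccr8* and *Cx3cr1*. It leaves out *Ackr4*, listed as *Ccrl1* at mean FPKM of 23.7 with vehicle and 33.0 with PTH.

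To describe the effect of constitutive *Slpi* expression, *Slpi* and mock MC3T3-E1 cells were compared in the same way. Of 13 members tested, 11 ligands and 2 receptors, 10 were called (76.9%, against 60.8% of all 11466 genes). *Ackr3*, *Ackr4*, *Ccl7*, *Ccl27a*, *Cxcl5*, *Cxcl12*, *Cxcl16* and *Cx3cl1* fell, which is 61.5% of the members against 28.9% of all genes, and *Ccl5* and *Ccl25* rose, 15.4% against 31.9%. *Cxcl5* was tested only because 1 mock library reached an FPKM of 1. The same 2 and 8 members passed an unadjusted *p* of 0.05, against 34.0% and 31.0% of all genes. No member changed at least 2-fold, as 0.733% of all genes did upward and 0.384% downward. The median log2 fold change of the members was -0.30, and that of all genes 0.004. T cell markers summed to 0.225 to 0.361 FPKM in these libraries. Of 12 tested osteoblast markers, 9 rose with *Slpi* and 1 fell, against 31.9% and 28.9% of all genes.

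*Ackr3* had the largest fitted change. It was measured at 37.2, 39.2 and 39.4 FPKM in mock libraries and at 22.3, 21.0 and 22.0 in *Slpi* libraries, with a wide gap between the groups. The log2 fold change was -0.80 (SE 0.0392, adjusted *p* = 2.91e-06 by limma), and the mean FPKM with *Slpi* was 56.4% of the mock mean. *Cxcl12* was measured at 73.6, 73.8 and 70.5 FPKM with mock and at 52.3, 49.0 and 53.2 with *Slpi*, again without overlap. Its log2 fold change was -0.49 (SE 0.0398, adjusted *p* = 2.66e-05 by limma). The ratio of *Cxcl12* to *Ackr3* FPKM was 1.98, 1.88 and 1.79 with mock and 2.35, 2.34 and 2.42 with *Slpi*, higher in 3 of 3 libraries (exact permutation test, two-sided, *p* = 0.1, the smallest possible). *Ackr4*, which scavenges CCL19, CCL21 and CCL25, was measured at 12.9, 14.4 and 12.97 FPKM with mock and at 10.8, 10 and 11.4 with *Slpi* (log2 fold change -0.30, adjusted *p* = 0.00287 by limma). It overlaps *Acad11* on the opposite strand.

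*Ccl7* and *Ccl2* are neighbors on chromosome 11, 8258 bases apart, and both attract monocytes. *Ccl7* (chr11:82045712-82047525) was measured at 23.2, 23.2 and 23.9 FPKM with mock and at 14.8, 14.0 and 15.2 with *Slpi* (log2 fold change -0.64, SE 0.0411, adjusted *p* = 8.82e-06 by limma). *Ccl2* was measured at 44.3, 46.0 and 46.4 FPKM with mock and at 44.9, 39.7 and 44.2 with *Slpi*, which overlapped (log2 fold change -0.09, 95% interval -0.20 to 0.03, adjusted *p* = 0.159 by limma). The ratio of *Ccl7* to *Ccl2* was 0.514 ± 0.00900 with mock and 0.343 ± 0.0116 with *Slpi* (SD, n = 3, exact permutation test, two-sided, *p* = 0.1, the smallest possible), with no overlap between the groups. Sequences of the monocyte chemokines are related, and how reads shared between them were assigned is not given in the sources used here.

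*Cx3cl1* was measured at 39.3, 42.0 and 39.9 FPKM with mock and at 36.8, 36.5 and 35.8 with *Slpi*, a small fall without overlap (log2 fold change -0.15, adjusted *p* = 0.00754 by limma). *Cxcl16*, the membrane-bound ligand of CXCR6, had means of 2.70 ± 0.242 and 1.82 ± 0.340 FPKM (log2 fold change -0.40, adjusted *p* = 0.00837 by limma). *Cxcl5*, a ligand of CXCR2, had means of 0.819 ± 0.178 and 0.328 ± 0.0276 FPKM (SD, n = 3), and its log2 fold change of -0.45 (adjusted *p* = 0.00401 by limma) became at least 2-fold with a pseudocount of 0.1. It passed the filter through mock replicate 2 alone, at 1.02 FPKM, in the group where it was higher. Without that library, or with the filter on the mean, it was not tested. *Ccl27a*, known from skin, was measured at 6.27, 5.58 and 3.92 FPKM with mock and at 2.09, 3.20 and 4.28 with *Slpi*. Its groups overlapped, and its call (log2 fold change -0.59, adjusted *p* = 0.0313 by limma) was lost in 6 alternatives, with adjusted *p* values between 0.0609 and 0.0962, among them those without mock replicate 1 or 2 and without *Slpi* replicate 1 or 2. It overlaps *Il11ra1* on the opposite strand, and its copy *Ccl27b* was listed at 0 in all libraries, as were *Ccl21b* and *Ccl21c* beside *Ccl21a*, so values of these near-identical genes are uncertain.

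The rises were smaller in number. *Ccl5*, a ligand of CCR1 and CCR3, had means of 6.75 ± 1.04 FPKM with mock and 8.63 ± 0.316 with *Slpi* (log2 fold change 0.32, adjusted *p* = 0.0125 by limma). *Ccl25*, the ligand of CCR9, was measured at 1.10, 1.82 and 1.77 FPKM with mock and at 2.30, 2.33 and 1.94 with *Slpi*. These groups lay close without overlap (log2 fold change 0.32, adjusted *p* = 0.0443 by limma), and the call was lost without mock replicate 1 or without *Slpi* replicate 1 or 2 (adjusted *p* = 0.108, 0.105 and 0.121 by limma). *Cxcl10*, with means of 2.66 ± 0.897 and 2.70 ± 0.0925 FPKM, and *Ccl17*, a ligand of CCR4, with 0.802 ± 0.417 and 0.483 ± 0.156, overlapped between the groups. *Ccl17* was called lower without mock replicate 1 (adjusted *p* = 0.0176 by limma). Without overlap, 7 members (53.8%) were lower and 2 (15.4%) higher, against 32.2% and 34.9% of all genes. The 26 ligands summed to 204 ± 3.59 FPKM with mock and 166 ± 6.02 with *Slpi*, and the receptors to 52.8 ± 1.94 and 33.2 ± 1.37 (SD, n = 3). This receptor sum includes *Ackr4*, unlike that of sorted osteoblasts.

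**Figure D3:**
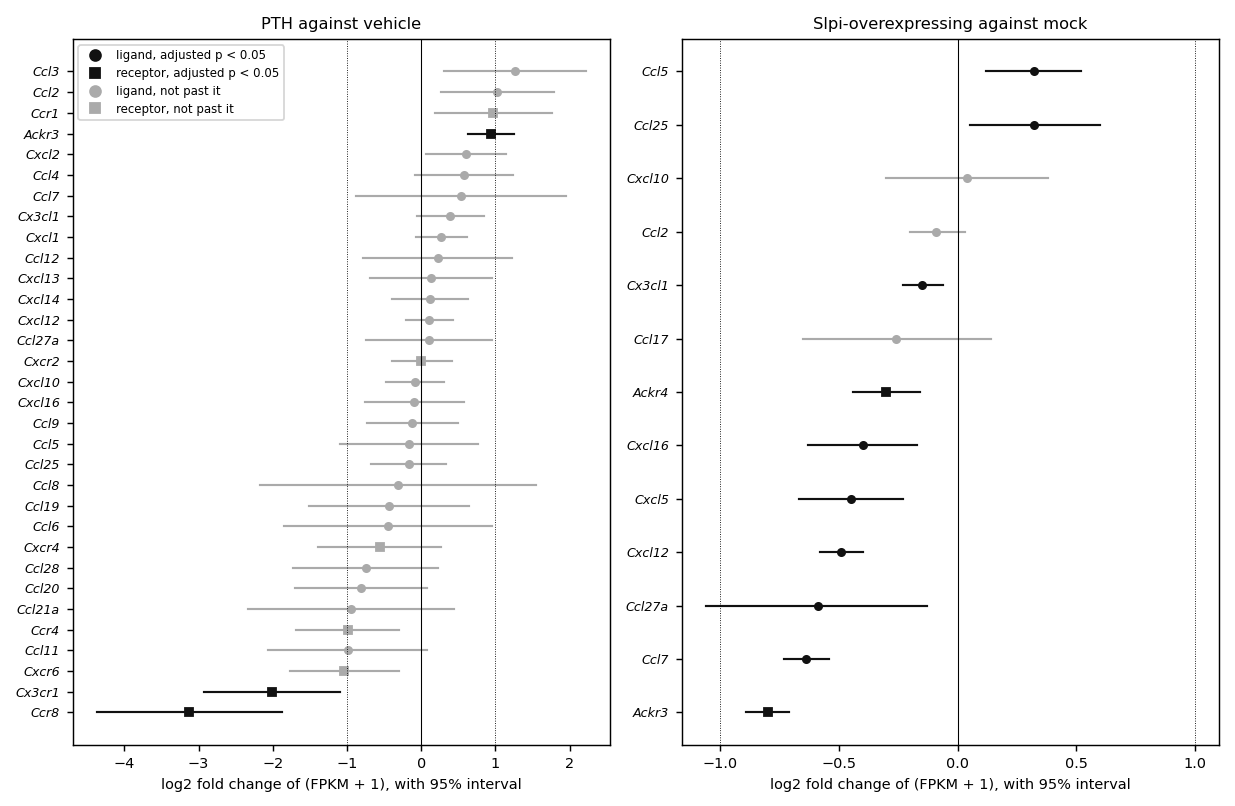
Fitted log2 fold changes of the tested members with their 95% intervals, PTH against vehicle (32 members) on the left and *Slpi* against mock (13 members) on the right. Black symbols passed an adjusted *p* of 0.05, squares are receptors, and dotted lines mark 2-fold. *Ackr3* lies at 0.94 on the left and at -0.80 on the right.

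Among the members tested in both experiments, of which there were 10, *Ackr3* was called in each. It was higher after PTH in osteoblasts and lower with constitutive *Slpi* in MC3T3-E1 cells. The difference between the experiments was not tested, since cells and treatment differed together. *Cxcl12* and *Ccl7* fell with *Slpi* and were not called after PTH, where *Ccl7* lay between 0 and 2.97 FPKM with vehicle and between 0.944 and 5.28 with PTH. *Cx3cl1* was far lower in sorted osteoblasts, at 1.76 ± 0.467 and 2.60 ± 0.486 FPKM (SD, n = 3), and its receptor *Cx3cr1* was listed at 0 in the line where the ligand was abundant.

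**Figure D4:**
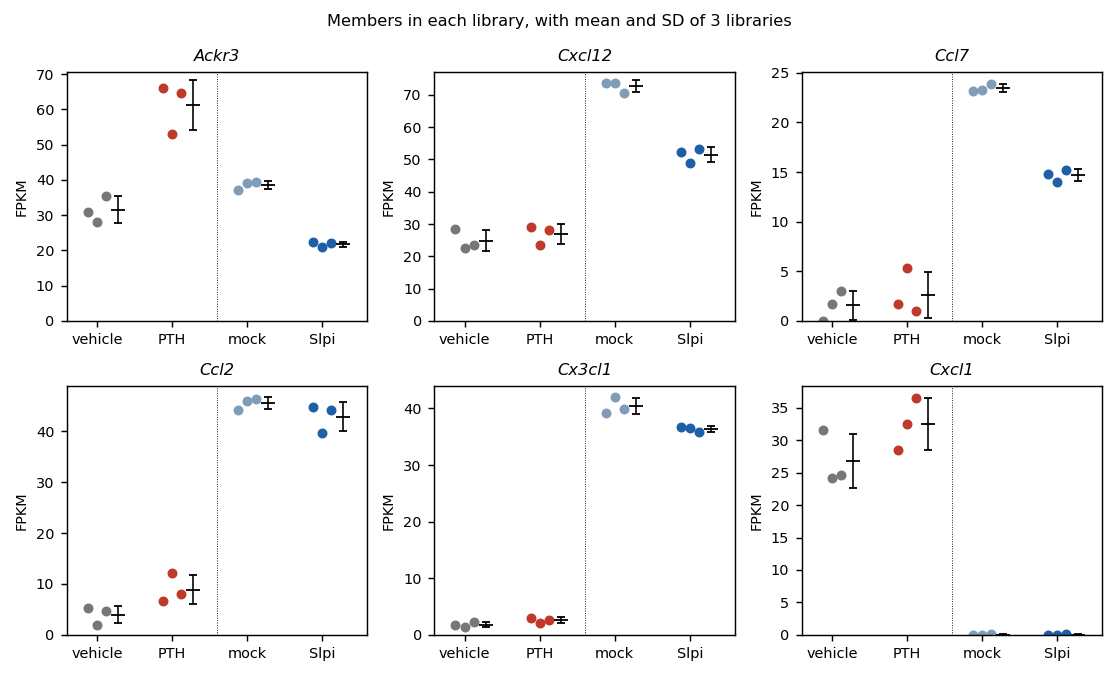
FPKM of 6 members in each library of the 4 groups, with the mean and SD of 3 libraries beside the points. The dotted line separates the experiments, which were normalized separately. *Ackr3* and *Cxcl12* are lower in *Slpi* than in mock libraries, *Ackr3* alone of the pair differs after PTH, and *Cxcl1* is near 0 in MC3T3-E1 cells.

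Further genes of the chemokine system, whose names lie outside the symbol rule, were also listed. *Xcl1*, the lymphotactin of T and NK cells, was measured at 17.0, 15.6 and 5.57 FPKM with vehicle and at 0, 0.424 and 0 with PTH. It fell, with no overlap between the groups (log2 fold change -3.48, adjusted *p* = 0.0133 by limma). *Ccrl1*, the older name of *Ackr4*, was measured at 22.2, 20.5 and 28.3 FPKM with vehicle and at 30.01, 31.3 and 37.7 with PTH, all higher, without passing the test (log2 fold change 0.47, adjusted *p* = 0.0794 by limma). The platelet chemokine *Pf4* was measured at 1.65, 3.14 and 1.85 FPKM with vehicle and at 136, 105 and 0.587 with PTH (adjusted *p* = 0.204 by limma). Megakaryocyte or platelet markers had the same split, with sums of 6.71 to 8.91 with vehicle and of 205, 165 and 8.98 with PTH. Of the 15 tested genes outside the rule in sorted osteoblasts, *Xcl1* fell and 0 rose by limma, against 8.85% and 6.38% of all genes. At an unadjusted *p* under 0.05, 4 were higher and 3 lower, against 16.0% and 17.5% of all genes. In MC3T3-E1 cells, 1 of 6 rose (*Cmtm4*, log2 fold change 0.17) and 1 fell (*Cmtm3*, -0.33), against 31.9% and 28.9% of all genes.

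Downstream of the receptors, 3 of 34 tested signaling genes rose with PTH and 7 fell, where 6.38% and 8.85% of all genes did. Among those that fell were the hematopoietic GTPase *Rac2* (-1.84), the actin regulator *Was* (-1.66) and the hematopoietic exchange factor *Vav1* (-1.62), all log2 fold changes. They moved with the lower T cell markers, whose part in them was not tested. *Rgs2*, which dampens G protein signaling, rose from 26.4 ± 1.76 to 49.2 ± 4.86 FPKM. With *Slpi*, 4 of 20 rose and 7 fell, where 31.9% and 28.9% of all genes did. Among them were *Rap1b*, a GTPase of integrin activation (log2 fold change 0.74), and *Ptk2b*, a focal adhesion kinase relative (-0.57). In the NF-kB and interferon list, 4 of 32 rose and 4 fell with PTH, against 6.38% and 8.85% of all genes. *Il1b* rose from 2.30 ± 0.205 to 9.48 ± 2.16 FPKM while *Tnf* fell from 4.25 ± 1.83 to 0.398 ± 0.398 (SD, n = 3). Both were listed at 0 in every MC3T3-E1 library. T cell and neutrophil markers differed between the same osteoblast groups, and the part of such cells in both genes was not tested. With *Slpi*, 15 of 27 fell and 3 rose, against 28.9% and 31.9% of all genes. The largest was *Vcam1*, an adhesion molecule for leukocytes, which fell from 106 ± 3.17 to 70.8 ± 1.42 FPKM, followed by *Stat2* (-0.48) and *Tnfrsf1b* (-0.42).

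Glycosaminoglycan genes, which hold chemokines at surfaces and in matrix, had 10 of 21 tested members higher and 1 lower with PTH, against 6.38% and 8.85% of all genes. The syndecan *Sdc1* rose from 7.56 ± 0.895 to 15.4 ± 0.538 FPKM (SD, n = 3). The glypicans *Gpc6* and *Gpc4* rose with log2 fold changes of 0.75 and 0.71 and biglycan, *Bgn*, with 0.74. The sulfotransferase *Hs6st1* fell, with a log2 fold change of -0.46. With *Slpi*, 4 of 19 rose and 8 fell, against 31.9% and 28.9% of all genes. *Vcan* fell from 50.6 ± 1.78 to 34.8 ± 3.03 FPKM, *Hs6st1* fell again (-0.41), and the glypican *Gpc1* and the syndecan *Sdc3* rose (0.33 and 0.30).

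By position, the members clustered on few chromosomes. The 11 members on chromosome 11 were all ligands, including *Ccl2*, *Ccl7*, *Ccl3* and *Ccl5*, and 5 ligands lay on chromosome 5. Of the 9 receptors, 6 lay on chromosome 9 and 3 on chromosome 1. The chromosome 9 receptors were not uniform after PTH, where *Ccr8* and *Cx3cr1* fell, *Cxcr6* and *Ccr4* were lower without a call, and *Ccr1*, 150363 bases from *Cxcr6*, was higher without a call.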

How the data were processed

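The authors deposited FPKM per gene for 12 libraries. Per the study's methods and the submitters' processing notes, 75-base single-end reads were mapped to mm10 with TopHat2 2.0.13, Bowtie2 2.2.3 and SAMtools 0.1.19, and FPKM came from Cufflinks 2.2.1 (Cuffnorm). Gene annotation and strand setting are not given in the sources used here. The methods give 1 library kit for both cell types, and the labels another kit for MC3T3-E1 cells. PTH replicate 3 was identified by its title. FPKM hide the number of reads. The FPKM step of 1 read gave relative depths from 0.787 to 1.40 among the osteoblast libraries and from 0.870 to 1 among those of the line, and read numbers derived from it (tolerance 0.05 reads) may be too low and cover counting error only.

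Each experiment was fitted alone in limma 3.58.1 (R 4.3.3, eBayes with a trend) on log2(FPKM + 1), 3 libraries against 3, over genes that reached an FPKM of 1 in any of its 6 libraries, and *p*-values were adjusted over all of them by Benjamini-Hochberg. A member was called at an adjusted *p* under 0.05. The model was tested on simulated data. Ratios were compared by exact permutation in scipy 1.17.1 (Python 3.11.15, numpy 2.4.6, pandas 2.3.3), and figures were drawn with matplotlib 3.10.9. Positions came from GENCODE on mm10 and promoters from RefSeq. Named were all called members, the 5 highest in each experiment with their ligand or receptor partners, and up to 4 called genes per pathway list, and further genes were named after their values were seen. A few listed genes were left out of the text and are not reported here. Members and lists were chosen with earlier results of these data known. Alternatives were a replicate block, no filter, a filter on the mean (FPKM of 1 or more), a pseudocount of 0.1, quantile normalization, no trend and leaving out each library. Deviations of libraries with the same number correlated at 0.0294, 0.0735 and 0.102 in sorted osteoblasts and at 0.0385, -0.0523 and -0.000264 in MC3T3-E1 cells. Libraries of different numbers correlated at -0.116 to 0.0688 and at -0.0988 to 0.105. For each vehicle replicate the PTH library of the same number correlated highest. All values were weak and do not settle pairing, and the main fit took no pairs.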

Additional observations from a re-analysis of the deposited data

How the results depend on the processing

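After PTH, the 1 member called higher became 2 with a pseudocount of 0.1, 3 with quantile normalization and 0 to 4 when 1 library was left out, and the 2 called lower became 0 with that pseudocount and 0 to 2 when 1 library was left out. Of members at least 2-fold changed, the 0 higher became 1 with the pseudocount, 2 with quantile normalization and 0 to 2 when 1 library was left out, and the 2 lower became 0 and 0 to 2. Calls went to 0 without vehicle replicate 1 or 2, and the 4 members called higher stood without PTH replicate 3. With *Slpi*, the 2 members called higher became 1 without a filter on low values and 1 to 2 when 1 library was left out, and the 0 at least 2-fold lower became 1 with a pseudocount of 0.1. The log2 fold change of *Cxcl10* after PTH lay between -0.21 and 0.04 when 1 library was left out, above 0 at 0.04 without vehicle replicate 1 and at 0.02 without PTH replicate 2. The weak correlations of deviations did not settle whether replicate numbers paired the samples. With a replicate block, 4 members fell after PTH in place of 2, with *Cxcr6* and *Cxcr4* added, 1 rose with *Slpi* in place of 2, as *Ccl25* reached an adjusted *p* of 0.0504 by limma, and over all genes 1028 rose and 1234 fell after PTH, against 830 and 1151 without it. The cause of these shifts was not tested. For the 6 members followed after PTH and the 11 followed with *Slpi*, 180 of the results under an alternative kept their direction and side of the threshold and 20 lost their call. Over all tested members, 9 calls were gained under an alternative, in 6 members, namely *Ccl3*, *Ccr1*, *Cxcl2*, *Cxcr4* and *Cxcr6* after PTH and *Ccl17* with *Slpi*. Power to detect changes in low members was not tested.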
